A study of Mus musculus with 8 samples.

Results

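Open chromatin of basal transient amplifying cells (basal TACs) was set against that of bulge stem cells, both sorted from mouse back skin, using ATAC-seq, which reads out where a transposase can cut and tag the DNA. Overlapping peaks of the basal TAC list and the bulge list were merged, with the mitochondrial and Y chromosomes left out. This gave 94371 sites, of 114956 when the peaks of all 4 populations of the series (8 samples) were merged. The signal of a site in a list is the highest fragment pileup of its peaks there, scaled to 1000000 fragments of that library and given in FPM (fragments per 1000000). Sites were described by the list that held them, by the ratio of FPM where both did, and by the nearest protein-coding gene within 100 kb.

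Basal TACs were taken at postnatal day 30 during anagen, the growth phase, and sorted as GFP-/CD34-/SCA1- cells with P-cadherin and much integrin β1. Bulge hair follicle stem cells came from follicles in second telogen, the resting phase, at postnatal day 55 and were sorted as GFP+ and CD34+ with integrins α6 and β1 present. Both came from Lgr5-eGFP-ires-CreER mice of mixed sex, so an engineered allele at Lgr5 is shared by the groups and lies at the locus that drives GFP. Each group has 2 samples, which share 1 pooled peak list, so no spread between replicates, p-value or test was available. Age, hair cycle stage and cell population differ together and cannot be told apart. The basal TAC list had 75652 peaks from 30824845 fragments, and the bulge list 62333 from 24065469. The weakest peak called reached 0.389 FPM in basal TACs and 0.416 FPM in the bulge, and median fold enrichment over the local background was 6.71 and 7.48 in that order. Intervals are 95% intervals and cover counting error only. In these pooled cells, a smaller share of cells with a site open and less opening in each cell cannot be told apart.

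The bulge is the niche in the resting follicle that holds stem cells, kept quiet in part by BMP signals and by the transcription factor NFATc1. When growth starts, progeny of these cells build a bulb of dividing cells around the dermal papilla. WNT signals through LEF1, and SHH, BMP and Notch signals, act there as cells commit to the inner root sheath and the hair shaft. The basal TACs of this bulb touch the basement membrane, and the suprabasal TACs above them are further along. ATAC-seq peaks mark promoters, which tend to be open in many cell types, and distal elements, which tend to be specific to a cell state.

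The promoters below were chosen after their values were seen, as named genes or list members whose window carried a peak in basal TACs only (Fgf5 and Padi3), a higher pileup in basal TACs (Ivl and Bmp4) or a lower one (Grem1, Lhx2 and Foxc1). Fgf5 encodes the growth factor that ends anagen, Padi3 an enzyme that citrullinates proteins of the inner root sheath and hair, and Ivl involucrin of the cornified envelope. Bmp4 and Grem1 encode a BMP ligand and a BMP antagonist, and Lhx2 and Foxc1 transcription factors of bulge stem cells. Each window, from RefSeq (GRCm38.p6, the same build as mm10), runs from 250 bases before to 50 bases after the gene's start on the gene's strand, 5′ to 3′. Capitals mark matches, on either strand, to the 13 motifs listed with the promoter results. The windows are chr5:98253934-98254233 on the plus strand (Fgf5), chr4:140810599-140810898 on the minus strand (Padi3), chr3:92573686-92573985 on the minus strand (Ivl), chr14:46390620-46390919 on the minus strand (Bmp4), chr2:113758599-113758898 on the minus strand (Grem1), chr2:38339031-38339330 on the plus strand (Lhx2) and chr13:31806396-31806695 on the plus strand (Foxc1).
Fgf5: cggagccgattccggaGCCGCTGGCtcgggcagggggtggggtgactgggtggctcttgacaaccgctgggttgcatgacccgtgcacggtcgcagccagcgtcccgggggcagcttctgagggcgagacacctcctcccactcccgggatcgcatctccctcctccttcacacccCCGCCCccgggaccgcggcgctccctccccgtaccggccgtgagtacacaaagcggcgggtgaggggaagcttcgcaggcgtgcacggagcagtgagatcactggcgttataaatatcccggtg
Padi3: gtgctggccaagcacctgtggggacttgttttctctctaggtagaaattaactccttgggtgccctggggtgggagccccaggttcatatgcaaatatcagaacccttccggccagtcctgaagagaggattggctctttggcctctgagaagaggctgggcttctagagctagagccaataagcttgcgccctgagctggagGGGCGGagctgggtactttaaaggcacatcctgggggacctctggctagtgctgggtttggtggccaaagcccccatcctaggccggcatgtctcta
Ivl: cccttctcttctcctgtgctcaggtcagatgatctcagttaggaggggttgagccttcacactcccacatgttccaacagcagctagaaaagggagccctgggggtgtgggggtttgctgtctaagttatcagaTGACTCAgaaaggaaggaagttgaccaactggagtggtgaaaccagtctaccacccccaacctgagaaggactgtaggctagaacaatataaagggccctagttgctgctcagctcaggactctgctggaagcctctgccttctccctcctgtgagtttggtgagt
Bmp4: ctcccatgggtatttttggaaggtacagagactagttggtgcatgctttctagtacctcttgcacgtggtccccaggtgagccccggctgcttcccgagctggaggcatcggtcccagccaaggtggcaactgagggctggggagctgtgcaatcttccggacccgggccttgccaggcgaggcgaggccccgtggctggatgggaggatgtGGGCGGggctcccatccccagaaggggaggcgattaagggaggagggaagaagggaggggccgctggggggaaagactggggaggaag
Grem1: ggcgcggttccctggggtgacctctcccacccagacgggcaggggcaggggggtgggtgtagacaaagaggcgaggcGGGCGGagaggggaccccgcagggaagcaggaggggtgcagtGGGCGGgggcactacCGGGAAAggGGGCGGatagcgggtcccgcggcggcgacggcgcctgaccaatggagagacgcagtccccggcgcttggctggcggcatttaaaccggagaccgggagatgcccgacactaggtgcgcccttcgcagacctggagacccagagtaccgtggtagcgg
Lhx2: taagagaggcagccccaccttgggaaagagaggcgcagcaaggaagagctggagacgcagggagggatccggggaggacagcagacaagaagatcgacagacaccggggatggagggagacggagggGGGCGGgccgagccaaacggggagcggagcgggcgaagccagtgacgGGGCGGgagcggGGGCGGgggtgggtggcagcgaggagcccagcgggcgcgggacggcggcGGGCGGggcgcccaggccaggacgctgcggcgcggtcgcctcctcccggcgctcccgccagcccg
Foxc1: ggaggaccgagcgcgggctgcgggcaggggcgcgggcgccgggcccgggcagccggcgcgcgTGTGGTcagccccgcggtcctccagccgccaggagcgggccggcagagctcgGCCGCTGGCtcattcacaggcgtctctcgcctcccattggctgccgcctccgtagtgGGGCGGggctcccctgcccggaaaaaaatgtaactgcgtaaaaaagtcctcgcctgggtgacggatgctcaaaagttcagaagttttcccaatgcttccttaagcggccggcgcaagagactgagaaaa

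The site over the Fgf5 window had 4.41 FPM in basal TACs, and the bulge list had no peak there. The Padi3 site had 6.36 FPM in basal TACs, again with no bulge peak. The Ivl site had 5.71 FPM in basal TACs and 1.54 in the bulge, a log2 ratio of 1.89, and the Bmp4 site 4.96 and 1.45 in the same order, a log2 ratio of 1.77. The 3 bulge-high promoters ran the other way. The Grem1 site had 0.746 FPM in basal TACs and 6.73 in the bulge (log2 ratio -3.17). The site that overlaps the printed Lhx2 window had 0.811 and 3.62 (-2.16), and the Foxc1 site 2.69 and 11.3 (-2.07). Each of these 5 shared sites kept its direction by fold enrichment, but each difference was smaller on that scale. Fold enrichment was 9.90 in basal TACs and 6.19 in the bulge at Ivl and 3.18 and 6.89 at Lhx2. In the same order it was 4.61 and 6.59 at Grem1 and 7.317 and 8.397, close to equal, at Foxc1. Promoters of list genes that are not printed did not all keep their direction. That of Tgfbi, with a log2 ratio of -2.58, had fold enrichments of 7.77 in basal TACs and 7.74 in the bulge. A second Lhx2 window, at chr2:38351058-38351357, had 8.37 FPM in basal TACs and 14.8 in the bulge, with fold enrichments the other way round at 8.38 and 7.57. The peak summits lay 62 bases after the start at Fgf5 and 128 before it at Padi3. At Lhx2 they lay 742 bases after the start in basal TACs and 136 after it in the bulge, and at Grem1 254 and 35 after it. The windows end 50 bases after the start. Both Lhx2 summits and the basal TAC summit of Grem1 thus lay outside the printed sequence, and their pileups are not levels within it. At Ivl the summits lay 86 bases before the start in basal TACs and 181 before it in the bulge, and at Foxc1 83 and 148 before it. The single AP-1 match in the Ivl window starts 116 bases before the gene's start, between the 2 summits. The match is a description and does not show that a factor is bound.

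Over all sites, basal TACs had more places of their own. A peak was present in the basal TAC list only at 32738 of the 94371 sites (34.7%, Wilson interval 34.4 to 35.0) and in the bulge list only at 19262 (20.4%, 20.2 to 20.7). Both lists held the other 42371. A site in 1 list only is one where no peak was called in the other, which is not the same as no signal. Most such sites were low: the signal in FPM had a median of 1.14 at basal-only sites and 1.37 at bulge-only sites, against 2.50 in basal TACs and 3.16 in the bulge at shared sites. The 95th percentile was 3.67 at basal-only and 6.61 at bulge-only sites. Of the basal-only sites, 16624 (50.8%) reached the lower quartile of bulge peaks (1.12 FPM). Of the bulge-only sites, 12999 (67.5%) reached the lower quartile of basal TAC peaks (0.973). Basal TACs therefore had more sites of their own from a deeper library, and a smaller share of these was strong by the measure of the other list. When only as many basal TAC peaks as the bulge list holds were used, those with the highest −log10 q, 50.4% of sites in 1 list only were in the basal TAC list, against 63.0% with all peaks.

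At shared sites the basal TAC pileup was usually the lower one. The median log2 ratio of basal TAC to bulge was -0.45 (interval -0.46 to -0.44), so the bulge median was 1.36-fold higher, and the quartiles were -0.99 and 0.27. Pileup was at least 2-fold higher in basal TACs at 4707 sites (11.1% of shared sites) and at least 2-fold lower at 10459 (24.7%). This shift touches most shared sites, so changes are best read relative to it. Relative to the median ratio, 7904 sites (18.7%) were at least 2-fold above and 5118 (12.1%) at least 2-fold below. Higher sites thus made up 31.0% of those past 2-fold by FPM and 60.7% once centred on the median. On the scale of fold enrichment, which divides each peak by its own local background, the median log2 ratio was -0.12. No spike-in or replicate sets which scale holds, and the part of library quality in the shift was not tested. The ratios span a wide range, from -5.49 to 4.12.

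**Figure D1:**
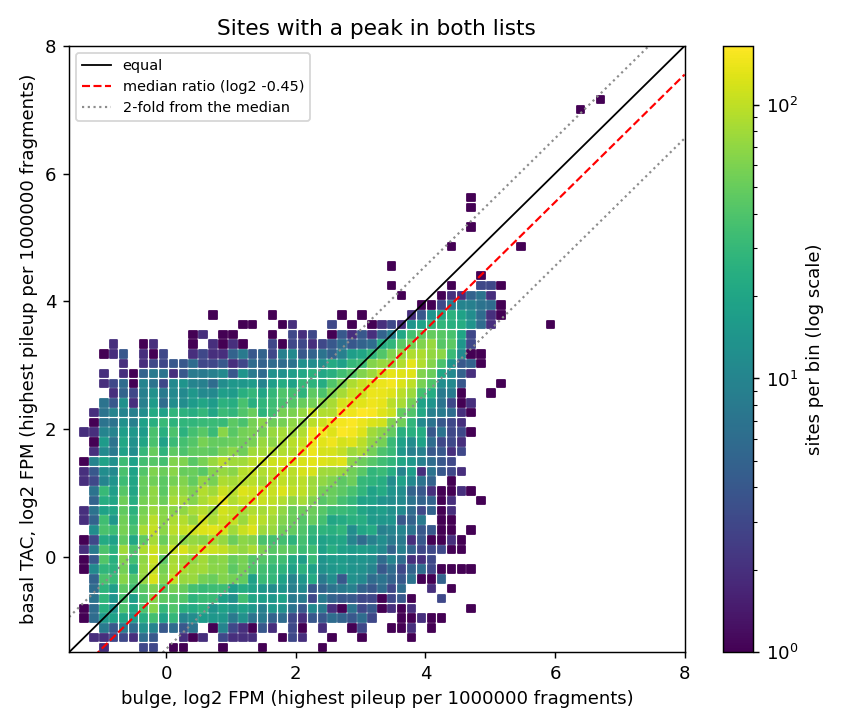
Sites with a peak in both lists, by log2 FPM in basal TACs (vertical) and in the bulge (horizontal), with colour for the number of sites per bin on a log scale. The cloud lies below the line of equal values, along the dashed median ratio of -0.45, and 10459 sites were at least 2-fold lower in basal TACs, against 4707 at least 2-fold higher; relative to the median ratio the order turned, with 5118 below and 7904 above.

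Where the sites lay differed by class. Of basal-only sites 5.32% and of bulge-only sites 4.71% were within 1 kb of a gene end, against 28.9% of shared sites. Sites in 1 list only were thus mostly distal in both populations, and shorter, with median lengths of 509 bp (basal-only) and 477 bp (bulge-only) against 1058 bp (shared). Shared sites near gene ends had a median log2 ratio of -0.65 and those farther away -0.30, so the lower basal TAC pileup was more marked at gene ends. Of the shared sites near gene ends only 3.27% were at least 2-fold higher in basal TACs, against 14.3% of those farther away. On chromosome X the basal TAC list alone held 53.7% of sites in 1 list only (Wilson interval 50.8 to 56.5), against 63.2% on autosomes, and the shared median was -0.59 on chromosome X and -0.45 on autosomes. The sex of the pooled mice is given as mixed for both groups, and its part in the chromosome X values was not tested.

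The other 2 populations of the series, which the classes did not use, split the sites in 1 list only by stage. Of basal-only sites, 45.1% (Wilson interval 44.5 to 45.6) had a peak in suprabasal TACs, the other anagen population, and 10.5% (10.2 to 10.8) had one in the hair germ, the other telogen population. Of bulge-only sites, 18.8% (18.3 to 19.4) had a suprabasal TAC peak and 53.2% (52.5 to 53.9) a hair germ peak. A peak in neither was found at 16635 basal-only sites (50.8%) and 7750 bulge-only sites (40.2%). Among shared sites the hair germ list gave the same order. A hair germ peak was present at 77.7% of those at least 2-fold above the median ratio and at 98.3% of those at least 2-fold below it. The suprabasal TAC shares were 76.6% and 67.2% in that order. Sites within 2-fold of the median ratio had a suprabasal TAC peak in 83.0%, more than either. The suprabasal TAC library was the deepest of the series and the hair germ library the shallowest, and suprabasal TACs came from another mouse strain, so shares in the 2 lists are not on 1 scale. Within each of these lists the classes still differed by more than the counting error.

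**Figure D2:**
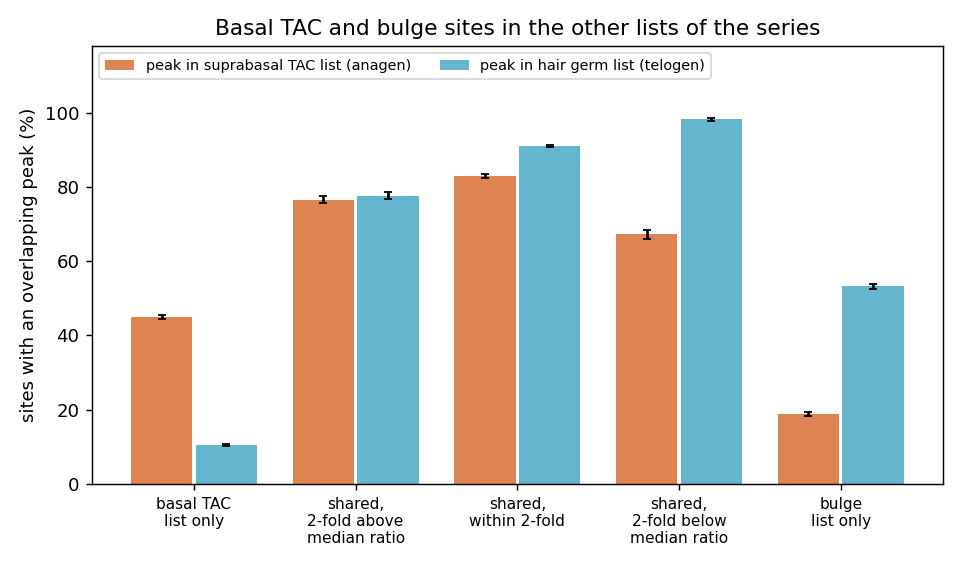
Share of sites with an overlapping peak in the suprabasal TAC list (anagen, orange) and the hair germ list (telogen, blue), for 5 classes of basal TAC and bulge sites, with 95% Wilson intervals as bars. Basal-only sites had a suprabasal TAC peak in 45.1% and a hair germ peak in 10.5%, and bulge-only sites in 18.8% and 53.2%.

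A gene lay within 100 kb of 84235 sites, and among the sites in 1 list only that had one, 28596 of 45006 (63.5%) were in the basal TAC list. This is the background for every gene list below. The lists and their members were chosen with earlier results of these data known. A list share away from the background is therefore a description and no independent support. Of 16263 genes with a site, 7194 (44.2%) had more basal TAC than bulge sites, 3112 (19.1%) fewer and 5957 (36.6%) equal numbers. For lists, the median log2 ratio at shared sites is given as its difference from the median over shared sites of all genes, once by FPM and once by fold enrichment, because the sign of this difference depends on the scale for many lists.

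Genes listed for bulge stem cells had fewer sites in basal TACs. This list was not chosen blind to the data, and its members Sfrp1 and Col17a1 are also among the short genes named below for the most lost sites. Of the sites in 1 list only at the 20 list genes, 83 were in the basal TAC list and 153 in the bulge list, or 35.2% in basal TACs (exact interval 29.1 to 41.6). By member, 15 of 20 had fewer sites in basal TACs, 3 had more (Tcf7l1, Tcf7l2 and Bmp6) and 2 equal numbers. These counts hold Cd34 and Lgr5, on which the cells were sorted; without them, 79 sites were in the basal TAC list only and 141 in the bulge list only (35.9%, exact interval 29.6 to 42.6), and fewer basal TAC than bulge sites were found at 13 of the 18 genes left. Summed pileup in FPM over all sites of the list was 628 in basal TACs and 1364 in the bulge. The shared median log2 ratio differed from that of all genes by -0.27 by FPM and by 0.12 by fold enrichment. The bulge list alone held 69 sites that the hair germ list had too (45.1% of the 153), while 13 had a peak in suprabasal TACs.

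Nfatc1, the calcium-regulated transcription factor that keeps bulge cells quiescent, had 6 basal-only, 19 bulge-only and 10 shared sites. All 10 shared sites had a lower pileup in basal TACs, with log2 ratios between -4.20 and -0.51, and 7 of the 10 were also lower by fold enrichment. The site with the largest drop, at chr18:80582995-80584018 outside the gene span, had 1.07 FPM in basal TACs and 19.7 in the bulge, with fold enrichments of 5.59 and 13.0. Inside the span, at chr18:80654144-80657137, the values were 1.2 FPM in basal TACs and 12.3 in the bulge, while fold enrichment was 6.67 and 6.81, nearly equal. The strongest bulge-only site of the gene reached 9.06 FPM and the strongest basal-only site 2.40. Prlr, the prolactin receptor, which acts with NFATc1 in quiescence, had 6 basal-only, 17 bulge-only and 10 shared sites. Its highest bulge site, within the gene at chr15:10311364-10312435, had 3.80 FPM in basal TACs and 14.7 in the bulge.

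Sfrp1, a secreted WNT antagonist (chr8:23411383-23449632), had 3 basal-only, 12 bulge-only and 9 shared sites. The site at its lower-coordinate end had 2.73 FPM in basal TACs and 15.0 in the bulge, and a site outside the span at chr8:23484948-23486848 had 2.82 and 12.9, where fold enrichment ran the other way at 12.8 in basal TACs and 9.24 in the bulge. Of its 9 shared sites 7 were lower in basal TACs by FPM and 4 by fold enrichment. Col17a1, the hemidesmosomal collagen that anchors bulge cells, had 1 basal-only, 10 bulge-only and 6 shared sites. All 6 shared sites were lower in basal TACs by FPM, with log2 ratios between -2.03 and -0.69, but 4 of the 6 were higher by fold enrichment. With only sites of at least 5-fold enrichment, Col17a1 had 1 more basal-only than bulge-only site, and so did Nfib. Foxc1, a transcription factor of quiescent stem cells, had 0 basal-only, 1 bulge-only and 5 shared sites, all 5 lower in basal TACs by FPM and 3 lower by fold enrichment. Nfib, a nuclear factor I gene with 16 basal-only and 24 bulge-only sites, had shared sites on both sides of the median ratio, 27 above and 21 below. Sox9, which keeps stem cells in the follicle fate, had 8 sites in basal TACs and 10 in the bulge, and the basal keratin gene Krt15 2 and 3. Tcf7l1, a repressor of WNT targets in stem cells, ran the other way with 10 basal-only and 4 bulge-only sites. The genes of the sort markers themselves were Lgr5 (16 sites in basal TACs and 21 in the bulge), Cd34 (6 and 9), Itga6 (12 and 17), Itgb1 (11 and 7) and Cdh3 (10 and 12), and their differences are no finding, since the cells were sorted on these proteins or on the Lgr5 reporter. Ly6a, which encodes SCA1, had no site in either list.

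**Figure D3:**
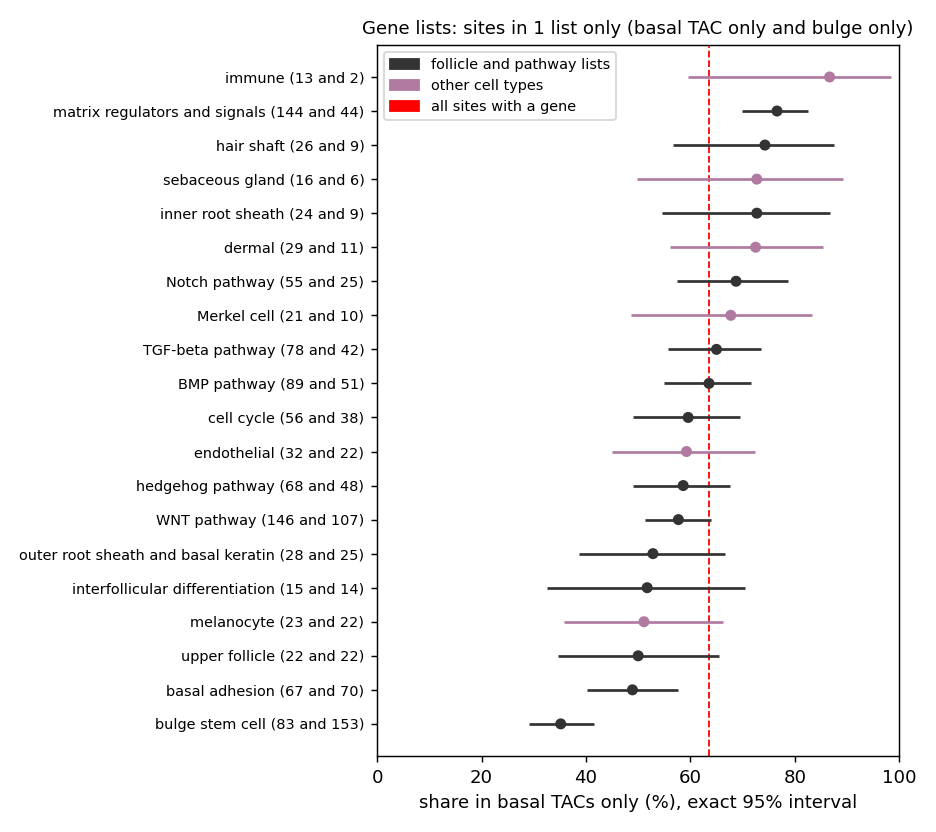
Share of sites in 1 list only that were in the basal TAC list, for 20 gene lists, with exact 95% intervals and, in brackets, the numbers of basal-only and bulge-only sites. The dashed line is the share over all sites with a gene (63.5%); bulge stem cell genes lay below it at 35.2% and matrix regulators above it at 76.6%.

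Regulators and signals of the hair matrix, the dividing bulb of the growing follicle, had more sites in basal TACs. Of their sites in 1 list only, 144 were in the basal TAC list and 44 in the bulge list, or 76.6% in basal TACs (exact interval 69.9 to 82.4), and 17 of 24 members had more sites in basal TACs and 7 fewer. Cux1 alone gave 35 of the 144 and 0 of the 44. Without it the share was 71.2%, against 63.5% over all genes, and no interval was computed for that share. The interval given counts sites of 1 gene as independent. Their shared median differed from that of all genes by 0.18 by FPM and by -0.06 by fold enrichment. Of the 144 basal-only sites 92 (63.9%) had a peak in suprabasal TACs, against 45.1% of all basal-only sites, and 23 had one in the hair germ. Summed pileup in FPM was close in the 2 populations, 617 in basal TACs and 628 in the bulge, although the site numbers were 276 and 176.

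Cux1, a homeobox gene of the inner root sheath and matrix (chr5:136248135-136567590), led all genes on basal-only minus bulge-only sites, with 35 basal-only, 0 bulge-only and 9 shared sites. Signal in FPM at the 35 sites ran from 0.519 to 8.95 with a median of 0.843, so most were weak, and 17 of them had a suprabasal TAC peak. The strongest basal-only sites lay outside the span, beyond its upper-coordinate end. Of its 9 shared sites 6 were higher in basal TACs by FPM and 4 by fold enrichment. The clearest, at chr5:136531077-136532329 within the gene, had 5.19 FPM in basal TACs and 0.623 in the bulge, with fold enrichments of 9.25 and 3.86. Lef1, whose product carries WNT signals to DNA together with β-catenin, had 15 basal-only, 0 bulge-only and 5 shared sites. Signal in FPM at the 15 sites ran from 0.487 to 4.44 with a median of 1.33, and 14 of them had a suprabasal TAC peak. The site at the lower-coordinate end of Lef1 was shared and had 2.56 FPM in basal TACs and 4.53 in the bulge. Its added sites thus came without a higher level at that end of the gene.

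Hoxc13, the homeobox regulator of hair keratins, had 10 basal-only, 1 bulge-only and 4 shared sites, and 9 of the 10 basal-only sites had a suprabasal TAC peak. Its shared site within the gene had 5.84 FPM in basal TACs and 9.77 in the bulge, and distal shared sites ran both ways, with 7.17 and 3.86 at chr15:102838978-102840467 and 0.487 and 5.78 at chr15:102861997-102863556. Of the 4 shared sites 2 were lower in basal TACs by FPM and 3 by fold enrichment. Msx1 had 8 basal-only and 0 bulge-only sites, and Msx2, the second Msx homeobox gene of the matrix, 3 and 0. Among ligands, Bmp4 had 5 basal-only and 1 bulge-only sites and a shared median log2 ratio of 1.86, with 3 of 4 shared sites higher in basal TACs by both scales. Wnt5a had 5 basal-only and 0 bulge-only sites, Wnt3 6 and 1, and Shh 3 and 1. Edar, the ectodysplasin receptor, had 4 and 1, with 8 of 12 shared sites higher in basal TACs by FPM and 4 by fold enrichment. Not every matrix gene followed. Gata3, a regulator of the inner root sheath, had 2 basal-only and 6 bulge-only sites, and all 10 of its shared sites were lower in basal TACs by FPM, 5 of them by fold enrichment. Trps1, a zinc finger gene of the follicle, had 9 basal-only and 5 bulge-only sites, but its 9 shared sites were all lower in basal TACs by both scales, with a median log2 ratio of -1.87, and with equal numbers of peaks its site difference turned to -1. Prdm1 had 7 and 8, and Sox21 0 and 2.

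**Figure D4:**
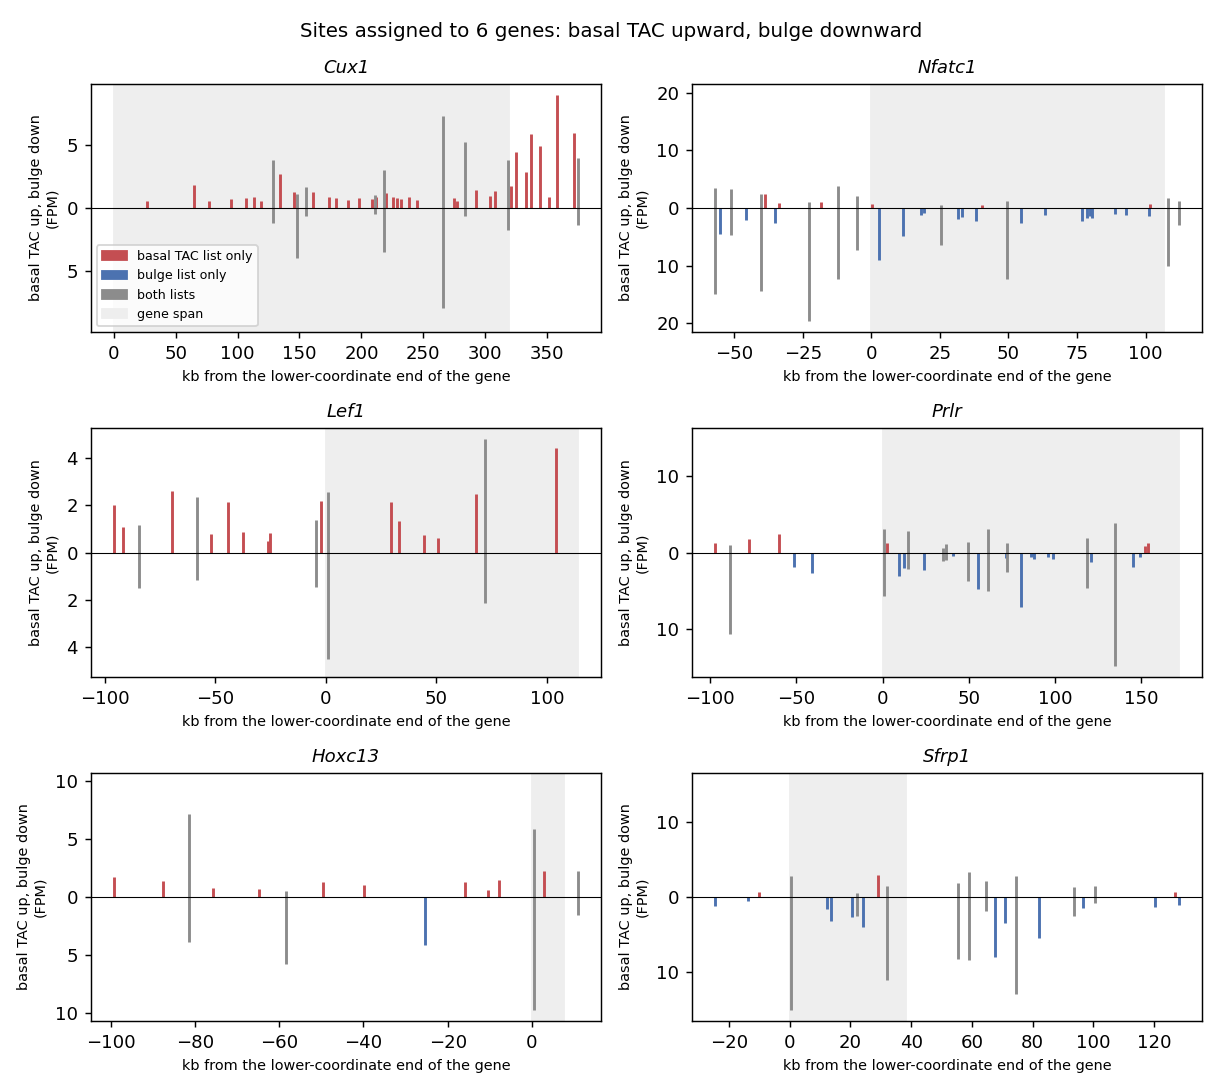
Sites at 6 genes by distance in kb from the gene's lower-coordinate end, with FPM of basal TACs drawn upward and of the bulge drawn downward. Cux1, Lef1 and Hoxc13 had 35, 15 and 10 basal-only sites (red), and Nfatc1, Prlr and Sfrp1 had 19, 17 and 12 bulge-only sites (blue); grey marks sites in both lists.

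Structural genes of the differentiated layers had few sites. Most of those in 1 list only were in the basal TAC list, as over all genes (63.5%). Most of the basal-only ones had a suprabasal TAC peak. Inner root sheath genes had 24 basal-only and 9 bulge-only sites (72.7% in basal TACs, exact interval 54.5 to 86.7, which includes the background of 63.5%), and 21 of the 24 had a suprabasal TAC peak. This list also holds the regulator Gata3, with 2 and 6 of these sites, the only member with fewer sites in basal TACs. Without it, a selection added after the data were seen, the counts were 22 and 3 (88%, interval 68.8 to 97.5). Since that selection drops the only contrary member, its share is not read as an excess over the background. Padi3 had 6 sites in basal TACs and 0 in the bulge, with pileups of 2.63, 1.36, 4.90, 2.27, 5.22 and 6.36 FPM from its lower-coordinate side on, and 3 of them had a suprabasal TAC peak. Tchh, which encodes trichohyalin of the inner root sheath, had 4 basal-only and 0 bulge-only sites, all 4 with a suprabasal TAC peak. Tgm3, a transglutaminase, had 6 and 3, and the inner root sheath keratin genes Krt27 and Krt71 had 2 and 0 each. The inner root sheath keratin genes Krt26 and Krt73 had no site in either list. Hair shaft genes had 26 basal-only and 9 bulge-only sites (74.3%, interval 56.7 to 87.5), 10 and 1 of them at Hoxc13, which stands in this list too. Without Hoxc13 the counts were 16 and 8 (66.7%, interval 44.7 to 84.4). Both hair shaft intervals include the background. Of the shaft keratin genes Krt35 had 2 sites in basal TACs and 0 in the bulge, and Krt34, Krt36 and Krt81 had none in either.

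Genes of basal cell adhesion had a smaller share of basal-only sites than the background. Their list holds the cadherin genes Cdh1 and Cdh3 and Cd44 beside genes of adhesion to the basement membrane. The share of outer root sheath and basal keratin genes could not be told from the background. The outer root sheath list had 28 basal-only and 25 bulge-only sites (52.8%, exact interval 38.6 to 66.7, which includes the background, and 66.7% against 63.5% for all genes with fold enrichment of at least 5), and its shared median differed from that of all genes by -0.25 by FPM and by 0.02 by fold enrichment. Barx2, a homeobox gene, had 3 basal-only and 12 bulge-only sites, with all 8 shared sites lower in basal TACs by FPM and 4 by fold enrichment. Trp63, the master regulator of stratified epithelia, had 13 and 6, and Gjb6, which encodes connexin 30, 7 and 1. Krt5 and Krt14, the keratin genes that mark basal epithelial cells, had 3 shared sites each. The Krt14 promoter window in the table, which lies within the gene span, had a basal-only site of 1.98 FPM with a fold enrichment of 2.33, and the Krt5 window had 8.66 FPM in basal TACs and 12.3 in the bulge. The adhesion list had 67 basal-only and 70 bulge-only sites (48.9%, interval 40.3 to 57.6), with a shared median that differed by -0.35 by FPM and by 0.06 by fold enrichment. With fold enrichment of at least 5 its share was 57.4%, against 63.5% for all genes. Without the sort markers Itga6, Itgb1 and Cdh3 the counts were 56 and 56 (50%, interval 40.4 to 59.6). Itgb6, an integrin β chain, had 5 basal-only and 10 bulge-only sites, Itga3, an integrin α chain, 2 and 0, and Lama3, the laminin 332 α chain, 11 and 2.

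Among WNT pathway genes the members pointed both ways, with 146 basal-only and 107 bulge-only sites (57.7%, exact interval 51.4 to 63.9). This interval includes the background of 63.5%. By member, 19 of 38 had more sites in basal TACs, 12 fewer and 7 equal numbers. Of receptors, Fzd10 had 8 basal-only and 0 bulge-only sites, whereas Fzd7 and Fzd1 had 0 and 3 each. Znrf3, a ubiquitin ligase that removes frizzled receptors, had 7 and 0, with 8 of 10 shared sites higher in basal TACs by FPM and 6 by fold enrichment. Of nuclear factors, Lef1 had 15 and 0, as above, and Tcf7 had 0 and 3, with all 6 of its shared sites lower by FPM and 5 by fold enrichment. Of ligands, Wnt7b had 1 and 9, in contrast to Wnt5a and Wnt3. Of secreted antagonists, Sfrp1 had 3 and 12, Dkk3 1 and 4 and Wif1 3 and 1. Axin2, a feedback target of the pathway, had 4 and 3, and the corepressor gene Tle3 9 and 3. Of the 146 basal-only sites 89 (61.0%) had a suprabasal TAC peak.

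BMP pathway genes had 89 basal-only and 51 bulge-only sites (63.6%, exact interval 55.02 to 71.5, next to the background), with 16 of 24 members with more sites in basal TACs, 6 with fewer and 2 with equal numbers. Antagonists were 4 of the 6 with fewer. Fst, which encodes follistatin, had 1 basal-only and 7 bulge-only sites, and all 4 shared sites lower in basal TACs by both scales. Sostdc1 had 0 and 4, with all 4 shared sites lower by FPM and 1 by fold enrichment. Nog, which encodes noggin, had 1 and 4, with its 3 shared sites lower by FPM and higher by fold enrichment, and Grem1 had 0 and 1 beside the promoter site shown above. The antagonist gene Chrd, with 2 and 0, and the pathway inhibitor gene Bambi, with 3 and 0, did not follow. Of receptors, Bmpr1b had 13 and 2, Bmpr2 6 and 1, Acvr1 4 and 2 and Bmpr1a 1 and 4. Of inhibitory SMADs, Smad6 had 8 and 2 and Smad7 2 and 2, with all 12 shared sites of Smad7 lower in basal TACs by FPM and 8 by fold enrichment.

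The intervals of the TGF-beta, hedgehog and Notch lists all include the background of 63.5%. Of all genes with a site, 44.2% had more sites in basal TACs and 19.1% fewer. TGF-beta pathway genes had 78 basal-only and 42 bulge-only sites (65.0%, exact interval 55.8 to 73.5), and 12 of 16 members had more sites in basal TACs. Smad3, which carries the signal to DNA, had 14 and 3, and Skil, a SMAD corepressor, 5 and 0. Only Tgfb1, of these 16, had fewer sites in basal TACs, with 0 and 1. Hedgehog pathway genes had 68 and 48 (58.6%, interval 49.1 to 67.7). Ptch1, the hedgehog receptor and a target of the pathway, had 12 and 2, and Gli2, a transcription factor of the pathway, 18 and 10, while the co-receptor gene Cdon had 1 and 9 and Gas1 3 and 5. Notch pathway genes had 55 and 25 (68.8%, interval 57.4 to 78.7), with 10 of 15 members with more sites in basal TACs, 1 with fewer and 4 with equal numbers. Maml2, a coactivator of Notch, had 16 and 5, Jag2, a ligand, 4 and 1, and Heyl, a target, 3 and 0. The shared median of the hedgehog list differed from that of all genes by 0.15 by FPM and by -0.05 by fold enrichment, and that of the Notch list by 0.28 and by -0.03.

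Basal TACs are known as dividing cells and telogen bulge cells as mostly resting ones. Cell cycle genes had a share of added sites whose interval includes the background. They had 56 basal-only and 38 bulge-only sites (59.6%, exact interval 49.0 to 69.6), with 8 of 25 members with more sites in basal TACs, 7 with fewer and 10 with equal numbers. Cdk6, a G1 kinase, had 12 and 1, E2f3, a factor of S phase entry, 7 and 1, and Cdk1, the mitotic kinase, 5 and 1. Myc had 6 and 10 (a difference of 1 the other way for sites within 20 kb of the gene), and all 8 of its shared sites were lower in basal TACs by FPM and 5 by fold enrichment. Top2a, Ccna2, Mcm2 and Cdk4 had 1 shared site each and no other. Interfollicular differentiation genes had 15 and 14 (51.7%, interval 32.5 to 70.6); Ivl had 2 and 0 and Sbsn, which encodes suprabasin, 0 and 2. Upper follicle genes had 22 and 22, with 10 and 6 at Lrig1, a stem cell marker of that region whose difference turned to -2 with equal numbers of peaks. The shared median of the differentiation genes differed from that of all genes by -0.25 by FPM and by 0.19 by fold enrichment, and that of the upper follicle genes by 0.48 and by -0.03.

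Marker genes of other skin cell types had sites in both lists. Immune genes had 13 basal-only and 2 bulge-only sites, with a summed pileup in FPM of 30.8 in basal TACs and 17.1 in the bulge, and Cd3g, Cd207, Itgam and Cd4 had no site in either. Dermal genes had 29 and 11, with sums of 67.7 and 89.0, and sebaceous gland genes 16 and 6, with sums of 88.8 and 96.1. Pparg, the regulator of sebocytes and fat cells, had 5 sites in basal TACs and 0 in the bulge. Melanocyte genes had 23 and 22, with sums of 77.5 and 127 and no site at Tyr. Endothelial genes had 32 and 22, with sums of 126 and 169 and no site at Tie1. Merkel cell genes had 21 and 10, with sums of 50.9 and 50.3 and no site at Krt20. The part of other cells in the comparison was not tested.

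The genes with the largest differences in site number were mostly long. The 10 with the most added sites in basal TACs had a median span of 563 kb and the 10 with the most lost 228 kb, while the median over all genes that had a site was 23.6 kb. After Cux1, the most added were at Cacna2d3, a calcium channel subunit gene (40 sites in basal TACs and 7 in the bulge), Fhod3, an actin-assembling formin gene (48 and 16), Nav2 (56 and 32), the phosphodiesterase gene Pde4d (48 and 24), the Slit receptor gene Robo1 (33 and 9), Slc24a3 (37 and 13) and the talin gene Tln2 (31 and 7). Basal-only sites at Robo1 mostly had a suprabasal TAC peak (20 of 24), whereas those at Tln2 mostly had none (7 of 26 had one). The most lost were at Gmds (16 sites in basal TACs and 39 in the bulge), Itprid2 (15 and 32), the palladin gene Palld (22 and 39), Trabd2b (35 and 50) and Zbtb16, a zinc finger repressor gene (16 and 31). At Itprid2 14 of 15 shared sites were lower in basal TACs by FPM but 4 by fold enrichment.

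Among genes with spans under 50 kb, Klhl6 had 12 sites in basal TACs and 0 in the bulge, with a median of 2.45 FPM. Fgf5 had 11 and 0, from 0.584 to 5.09 FPM, and 5 of the 11 sites had a suprabasal TAC peak and 0 a hair germ peak. Its 5 strongest sites had 4.25, 4.41, 4.44, 5.03 and 5.09 FPM, and 1 of these, at 4.41 FPM, lay over the promoter printed above. Dio3, which encodes an enzyme that inactivates thyroid hormone, had 12 and 1, Bod1 17 and 6, the fatty acid binding protein gene Fabp5 15 and 5, Lemd2 14 and 4 and Rcl1 12 and 2. Fewer sites were found at Cav2, which encodes caveolin 2 (7 in basal TACs and 17 in the bulge, but a difference of 1 toward basal TACs when every gene span within 10 kb of a site was counted), Glrp1 (8 and 17), the desmoplakin gene Dsp (9 and 17), the NF-κB regulator gene Nfkbiz (9 and 17), Nfil3 (6 and 14) and Lsmem1 (2 and 10), beside Col17a1 and Sfrp1. All 8 shared sites of Dsp were lower in basal TACs by FPM, and 5 by fold enrichment.

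**Figure D5:**
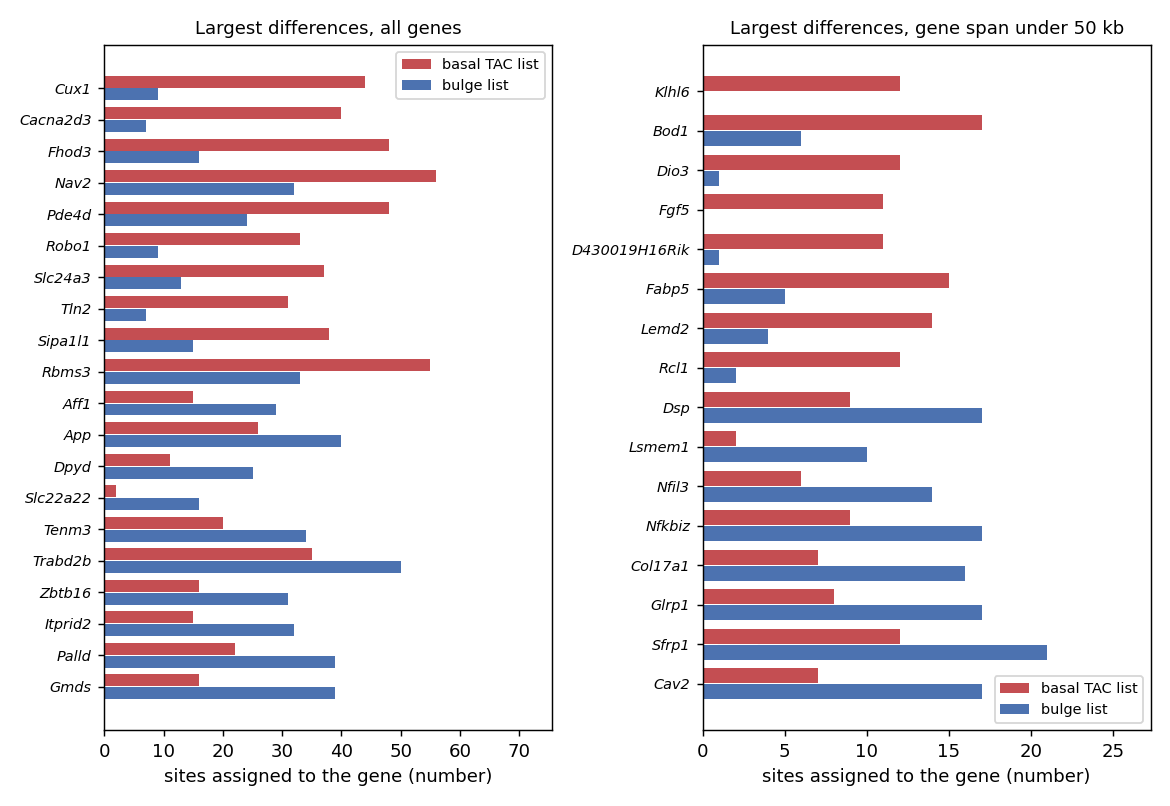
Number of sites in the basal TAC list (red) and the bulge list (blue) for the genes with the largest differences, among all genes (left) and among genes with a span under 50 kb (right). Cux1 leads with 44 sites in basal TACs and 9 in the bulge, and Gmds has 16 and 39 at the other end; Klhl6 and Fgf5 had 0 in the bulge.

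Sites in 1 list only were also read as runs along a chromosome. No chance level of run length was computed, and the runs named here were picked from the longest. Runs of basal-only sites with no bulge-only site between them numbered 9720, with a median of 2 sites, and runs of bulge-only sites 9710, with a median of 1. The longest basal-only run held 54 sites over 862 kb around Cux1 (chr5:136019926-136882108), from Dtx2 to Col26a1, with 20 shared sites between them. Of its 54 sites 31 had a suprabasal TAC peak. Another, of 39 sites around Fgf5 (chr5:97935281-99232727), reached from Antxr2 to Rasgef1b, and 10 of those had one. The longest bulge-only run held 23 sites around Foxf2, Foxc1 and Gmds (chr13:31625187-32258914), and the 15 shared sites between them had a median log2 ratio of -1.57. The run next to it, from Gmds to Serpinb1a, held 22 sites, and its 12 shared sites had a median of -2.23. A run of 17 bulge-only sites lay at Postn, which encodes periostin of the extracellular matrix, and its 2 shared sites had a median of -4.01. Since more basal-only than bulge-only sites entered, the lengths of the 2 kinds of run are not compared.

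The strongest single sites differed in kind. The 2 highest basal-only sites lay within Sfi1, at 26.9 and 23.6 FPM, but had fold enrichments of only 4.91 and 4.12, below the list's median of 6.71. The next were near Kif11, which encodes a mitotic kinesin (11.3 FPM), within Fhod3 (10.9) and within Cacna2d3 (10.5), with fold enrichments of 12.4, 6.35 and 11.1. Of these, the Fhod3 site had a suprabasal TAC peak, the Cacna2d3 site a hair germ peak only and the Kif11 site neither. Bulge-only sites reached higher levels. The first, within Chl1, had 32.7 FPM over only 232 bp and a peak of 35.8 FPM in suprabasal TACs. The others lay near Svep1 (27.0), within Bok (26.5), Kank1 (23.4) and Nek7 (23.1), near Atp6v0e2 (22.4), within Me3 (22.3) and near Haao (21.9), and all of these 7 had a hair germ peak. Those at Bok, Kank1, Me3 and Haao also had a suprabasal TAC peak, at 3.11, 1.44, 1.07 and 0.690 FPM in that order.

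Among shared sites whose larger pileup was at least 3.83 FPM, the ratio furthest above 1 was 17.4-fold, 387 kb from Btbd3, with 9.38 FPM in basal TACs and 0.540 in the bulge. Sites within Gsr, which encodes glutathione reductase, and within the plexin gene Plxna2 were 16.6-fold and 14.7-fold higher in basal TACs. The ratio furthest below 1 was at a site in the teneurin gene Tenm3 (chr8:49186358-49188373), with 0.584 FPM in basal TACs and 26.3 in the bulge, 45.0-fold lower in basal TACs. A site near Ednra, the endothelin A receptor gene, had 0.519 in basal TACs and 19.3 in the bulge, and one near Tnfrsf11b, which encodes osteoprotegerin, 0.487 and 16.1. All 8 of the shared sites with the lowest ratios had a hair germ peak, and 1 of the 8 had a suprabasal TAC peak. Each of the 16 extreme shared sites kept its direction by fold enrichment, but the differences named were smaller on that scale. Fold enrichment was 3.65 in basal TACs and 13.2 in the bulge at Tenm3, 11.3 and 3.38 at Btbd3 and 7.33 and 3.62 at Gsr. The lower pileup of each site named here was near that of the weakest peaks called (0.389 FPM in basal TACs and 0.416 in the bulge). The sizes of these ratios thus rest on weak peaks.

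Promoters were mostly open in both populations or in neither. Of 21045 RefSeq promoter windows of 17274 genes, a site covered 11778 (56.0%) in both lists, 600 (2.85%) in basal TACs only and 257 (1.22%) in the bulge only. At promoters in both lists the median log2 ratio was -0.67. Of 297 list genes 199 had a promoter in the table. Basal-only promoters among them included, beside Padi3 and Krt14, those of Tgm3 (2.89 FPM), Krt71, Wnt3 (0.876) and Bmpr1b, and bulge-only promoters those of Itgb6 and Krt2. The shared promoter site of Krt75, the companion layer keratin gene, had 5.13 FPM in basal TACs and 1.87 in the bulge, but fold enrichments of 8.03 and 11.1. That of Tgfbi, a matrix protein gene induced by TGF-beta, had 3.02 and 18.1 with nearly equal fold enrichments (7.77 and 7.74), that of Notch1 4.25 and 13.0 and that of Prdm1 2.82 and 10.1.

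Motifs were searched on both strands of all windows. The letters were TGANTCA for AP-1, CTTTGAT for TCF/LEF factors, TTGGCA for a short NFI site, ACAATG for SOX factors, AGATAA for GATA factors, TGTGGT for RUNX, TGTTTAC for FOX factors, TAATTA for LHX homeobox factors, GGGCGG for KLF/SP factors, GGAATG for TEAD, GCCNNNGGC for AP-2 and TTTCCCG for E2F. A long NFI site (TTGGC, then any 5 bases, then its reverse complement) was the last of the 13, and matches could overlap. Of all windows 46.7% held the KLF/SP motif, 20.1% AP-2, 14.7% RUNX, 13.5% TEAD, 13.1% the NFI short site, 10.5% SOX, 9.68% GATA, 7.04% AP-1, 4.47% LHX, 4.24% E2F, 3.25% TCF/LEF, 3.03% FOX and 0.0333% the NFI long site. The KLF/SP motif was in 44.5% of basal-only windows (Wilson interval 40.6 to 48.5) and 45.5% of bulge-only windows (39.5 to 51.6), against 68.5% of windows in both lists and 16.2% of those in neither. SOX was in 6.33% of basal-only windows (4.65 to 8.57) and 10.9% of bulge-only windows (7.65 to 15.3), and the NFI short site in 14.2% (11.6 to 17.2) and 19.8% (15.4 to 25.1). For all 13 motifs the intervals of basal-only and bulge-only windows overlapped. AP-1 was in 4.79% of windows in both lists and 10.2% of those in neither, the reverse of KLF/SP. This order is not particular to AP-1. SOX (6.32% and 16.6%), GATA (5.48% and 15.7%), RUNX (11.1% and 19.9%) and LHX (2.17% and 7.71%) had it too, as did TCF/LEF, FOX, TEAD and both NFI sites. AP-2 (26.5% and 10.7%) and E2F (6.16% and 1.77%) ran as KLF/SP did. The windows of 1 gene can overlap, so these intervals are too narrow.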

How the data were processed

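ATAC-seq (50 bp paired-end reads) was run on 2 basal TAC and 2 bulge samples, and 1 pooled peak list per population was used. Per the submitters' processing notes, reads were aligned with Bowtie2 2.2.9 and handled with Picard, and peaks were called with MACS2 on mm10. Per the file headers, MACS 2.1.1.20160309 kept peaks at a q-value of 0.05, with no control sample, a local background window of 10000 bp and all duplicates in the input kept; the input's name says that it was deduplicated and filtered. A shift of read ends toward the transposase's cut centre is neither stated nor denied by these sources. The deposited pileup is the signal, or fragment coverage, at a peak's summit. The deposited fold enrichment is the ratio of that pileup to the local background, per the file headers. The deposited −log10 p and −log10 q values were told apart by their place, since both column names are damaged, and the list also gives each peak's length.

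Peaks of the mitochondrial genome and of chromosome Y were dropped, peaks overlapping by 1 bp or more were merged, and the highest pileup was scaled by the header's total fragments (30824845 in basal TACs and 24065469 in the bulge). This depth sets the weakest peak that could be called (0.389 and 0.416 FPM). Each site was given the nearest of 21631 RefSeq protein-coding gene spans (GRCm38.p6) within 100 kb; the gene table used holds no exons. With 1 list per population no test was run. Shares carry Wilson (sites) or exact Clopper-Pearson (gene lists) 95% intervals, which cover counting error only. Named genes were the 10 with the most added and the 10 with the most lost sites, 8 and 8 with spans under 50 kb, the genes at the 8 highest sites of each class and the 8 highest and lowest shared ratios, and members of the gene lists. The members and lists were chosen with earlier results of these data known. Counting and merging were tested on simulated data. Python 3.11.15, numpy 2.4.6, pandas 2.3.3 and scipy 1.17.1 were used.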

Additional observations from a re-analysis of the deposited data

Results flagged for a closer look

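Peaks on the Y chromosome, which the comparison leaves out, numbered 12 in the basal TAC list and 9 in the bulge list. The highest reached 2.95 FPM in basal TACs and 5.32 FPM in the bulge. They stand out only as signal in data that the comparison does not use. Both groups are labelled as mixed in sex, and the libraries differ in depth.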

How the results depend on the processing

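No paired analysis was possible because each population has 1 peak list pooled over its 2 samples; for the same reason no sample could be left out. Selections by fold enrichment of at least 5, without chromosome X, without sort-marker genes and without matrix regulators were added after the data were seen. Basal-only sites numbered 16624 when a site had to reach the other list's lower quartile and 18424 with fold enrichment of at least 5, where bulge-only sites numbered 10988. The basal TAC share of sites in 1 list only was 63.6% with a −log10 q of at least 10, 56.1% at the lower quartile and 50.4% with equal numbers of peaks. The shared median log2 ratio was -0.53 with a −log10 q of at least 10, -0.41 with equal numbers, -0.47 with fold enrichment of at least 5, 0 by construction once centred and -0.12 as a ratio of fold enrichments. Sites at least 2-fold higher in basal TACs numbered 2302 with a −log10 q of at least 10, 7904 once centred and 1977 by fold enrichment, and those at least 2-fold lower 5118 once centred and 2676 by fold enrichment.

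With equal numbers of peaks the basal TAC share was 22.2% for bulge stem cell genes, 59.3% matrix, 37.5% outer root sheath, 36.8% adhesion, 43.4% WNT, 50% BMP, 52.4% TGF-beta, 43.3% hedgehog, 50.7% Notch, 45.8% cell cycle and 28.6% differentiation, against 50.7% for all genes. At the lower quartile it was 26.01% for bulge stem cell, 48.1% WNT, 54.4% BMP, 44.4% cell cycle and 25% differentiation genes, against 56.9% for all, and with fold enrichment of at least 5 it was 42.1% for bulge stem cell genes, against 63.5%. Without Gata3, its only member with fewer sites in basal TACs, the inner root sheath list had a share of 88%. Relative to all genes, the bulge stem cell share stayed lower by between -30.9 and -21.4 points and the matrix share higher by between 7.70 and 14.6 points in every setting tried, while the outer root sheath share, for one, changed sign.

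A sign change in basal-only minus bulge-only sites was counted only for genes with a main difference of at least 3 sites. By this rule 13 of the 312 genes tried changed sign in at least 1 setting. Genes with smaller differences, and differences that shrank without changing sign, were not counted. With equal numbers the difference turned to -1 at Trps1, -2 at Bmp2, -6 at Gli3, -1 at Notch1, -1 at Dsc1 and -2 at Lrig1. With fold enrichment of at least 5 it was 1 at Col17a1, Nfib and Nfix and -1 at Dsc1. It was -1 at Trps1 at the lower quartile and -1 at Bmp2 and Dsc1 with a −log10 q of at least 10. With genes within 20 kb it was -1 at Mycn and Id4 and 1 at Myc, and with every span within 10 kb 1 at Cav2 and -1 at Bmp2 and Id4. The causes were not tested. Pooled lists, unequal depth (30824845 fragments in basal TACs and 24065469 in the bulge) and an unknown signal under sites without a peak limit every difference given.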
